A study of Homo sapiens with 41 samples.

Results

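Olfactory receptor genes are the largest gene family of the human genome, and chromosome 11 carries more of them than any other chromosome. They encode receptors of the nasal epithelium that bind odorants and signal through an olfactory G protein, adenylyl cyclase and a cyclic nucleotide-gated channel. A sensory neuron uses 1 receptor gene and keeps the others in closed chromatin, and most members are silent in other tissues. Members were taken as the protein-coding genes of chromosome 11 in the RefSeq table of the hg38 assembly (GRCh38.p14) whose symbol is OR, a number, letters and a number. This gave 171 genes, of which 168 had a position on the chromosome itself and were measured, among 19971 protein-coding genes in all. The other 3 (OR9G9, OR8U8 and OR8U9) lie on an alternate scaffold and were left out of every measure by position.

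The cells were T47D, an established line of luminal breast carcinoma, kept without steroid hormones and then without serum before any treatment. All NaCl groups received 110 mM NaCl by their titles (the series text gives 100 mM), which makes the medium hypertonic, and the untreated cells (no stress) did not. Chromatin immunoprecipitation with sequencing gave peak lists for RNA polymerase II (Pol II) at 1 h of NaCl (2 libraries) and without stress (2 libraries). For CTCF, the insulator protein that stops cohesin on DNA, there were 3 lists without stress, 2 at 7.5 min, 1 at 30 min, 3 at 1 h and 1 from cells that were returned to isotonic medium for 1 h after 1 h of NaCl (recovery). For RAD21, a subunit of the cohesin ring, there were 3 lists without stress, 3 at 1 h and 3 after recovery. Each of CTCF and RAD21 also had 1 library without stress, 1 at 1 h and 1 after recovery from cells given 500 nM triptolide, an inhibitor of transcription initiation, for 2 h before. A separate submission, called set 2 here, held these triptolide libraries, the CTCF recovery library and replicate 3 of each group of 3. Nothing in the labels says that replicates were separate cultures, so the p-values measure only the spread between these libraries.

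The lists give no read totals, so the sequencing depth is unknown, and list length also depends on enrichment and calling. It ran from 88046 to 107396 regions in 3 Pol II lists and reached 216968 in replicate 2 at 1 h, which stands apart. CTCF lists held 20678 to 59843 peaks and RAD21 lists 3344 to 40969. Of 10 luminal marker genes, 6 and 9 had a Pol II region at 1 h, against 9 and 9 without stress. A gene is called higher or lower below where both 1 h lists lie above or below both untreated lists in the share of the gene covered, which held for 16.1 and 35.2% of all protein-coding genes. By this rule 5 of the 10 (GATA3, PGR, KRT8, CDH1 and ESR1) were lower and none was higher, KRT19 and XBP1 were covered over their whole length in all 4 lists, and KRT18 had no region in any. Markers of other cell types had regions too, in 4 and 5 of 5 haematopoietic genes at 1 h, against 4 and 4 without stress, in 3 and 3 of 4 fibroblast genes at 1 h, against 4 and 2 without stress, and in 4 and 3 of 4 neuronal genes at 1 h, against 3 and 3 without stress. Of all protein-coding genes, 64.7 and 77.9% had a region at 1 h, against 74.9 and 76.0% without stress. Called higher were 2 haematopoietic (PTPRC and ITGAM), 2 fibroblast (DCN and PDGFRB) and 1 neuronal gene (RBFOX3), and CD3E was called lower. The part of other cells in the results was not tested.

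Joining members that lay within 500 kb of each other, in runs of at least 5, gave 7 stretches, called territories here, with 159 members in 5.57 Mb or 4.12% of the chromosome. The stretch from OR52B4 to OR52W1 (chr11:4367263-6200186) holds 55 members of the class I receptors and encloses the beta-globin genes, 6 TRIM genes and others. OR2AG2 to OR2D3 (chr11:6765626-6921994) holds 8 members. OR4B1 to OR4A47 (chr11:48216810-48489722) holds 7. OR4A16 to OR5AK2 (chr11:55343201-56989843) holds 46, with TRIM51 as its only other gene. OR9Q1 to OR5B21 (chr11:58023881-58508105) holds 13. OR5AN1 to OR10V1 (chr11:59358895-59713845) holds 8 and also encloses OSBP, which encodes an oxysterol-binding protein, and PATL1, which encodes an mRNA decapping factor. OR6X1 to OR8A1 (chr11:123753580-124571374) holds 22 members together with TMEM225 and VWA5A. The other 9 members lay outside the territories.

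Promoter sequences of the members were poor in GC and in CG pairs, as were those of receptor genes on other chromosomes. RefSeq promoter windows (GRCh38.p14, 250 bases before to 50 after a transcription start) were found for 135 of the 171 members, in 138 windows, and for 15812 protein-coding genes in all, in 22132 windows. The median GC content of member windows was 37%, against 62.3% over all windows, and their median number of CG pairs was 1, against 21. The 186 windows of receptor genes on other chromosomes had medians of 38.3% and 1. CG pairs are the sites of DNA methylation and are dense in the promoters of widely expressed genes. At least 10 of them were found in 1 member window (0.725%), against 2.69% of windows of the other receptor genes and 70.1% of all windows. That window belongs to OR52N2, which held 14 CG pairs, while every other member window held at most 6. It is shown first, followed by the windows of OR9Q1 and OR8G1, which had Pol II regions in all 4 lists, and of OR4D5, which had the largest difference between 1 h and no stress among the members whose groups did not overlap. All 4 are on the plus strand, at chr11:5808674-5808973, chr11:58023631-58023930, chr11:124240845-124241144 and chr11:123939367-123939666, and capitals mark the CG pairs, of which they hold 14, 2, 3 and 0.
OR52N2: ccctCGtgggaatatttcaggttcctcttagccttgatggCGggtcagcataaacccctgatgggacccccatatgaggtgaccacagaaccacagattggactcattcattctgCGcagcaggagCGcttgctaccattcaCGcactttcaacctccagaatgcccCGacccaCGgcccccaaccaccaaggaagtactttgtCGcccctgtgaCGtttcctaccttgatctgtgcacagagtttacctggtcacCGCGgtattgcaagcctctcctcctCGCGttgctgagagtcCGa
OR9Q1: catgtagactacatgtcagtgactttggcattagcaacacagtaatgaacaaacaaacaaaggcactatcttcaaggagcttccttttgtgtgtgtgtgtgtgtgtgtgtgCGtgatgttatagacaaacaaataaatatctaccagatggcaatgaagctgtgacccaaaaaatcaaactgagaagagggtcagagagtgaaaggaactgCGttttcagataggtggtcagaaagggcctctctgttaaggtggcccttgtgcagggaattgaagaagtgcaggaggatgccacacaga
OR8G1: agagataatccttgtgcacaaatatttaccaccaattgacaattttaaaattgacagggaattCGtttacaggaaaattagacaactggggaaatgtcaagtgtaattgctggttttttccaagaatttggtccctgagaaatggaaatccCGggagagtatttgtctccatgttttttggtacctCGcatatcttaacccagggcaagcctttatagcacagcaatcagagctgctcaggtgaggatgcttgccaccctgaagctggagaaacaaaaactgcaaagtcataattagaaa
OR4D5: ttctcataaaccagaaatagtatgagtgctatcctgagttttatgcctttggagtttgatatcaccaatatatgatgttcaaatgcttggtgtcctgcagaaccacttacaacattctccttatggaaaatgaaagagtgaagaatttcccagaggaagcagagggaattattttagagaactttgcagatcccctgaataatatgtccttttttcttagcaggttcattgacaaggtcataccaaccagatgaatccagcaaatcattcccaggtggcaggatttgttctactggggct

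**Figure D1:**
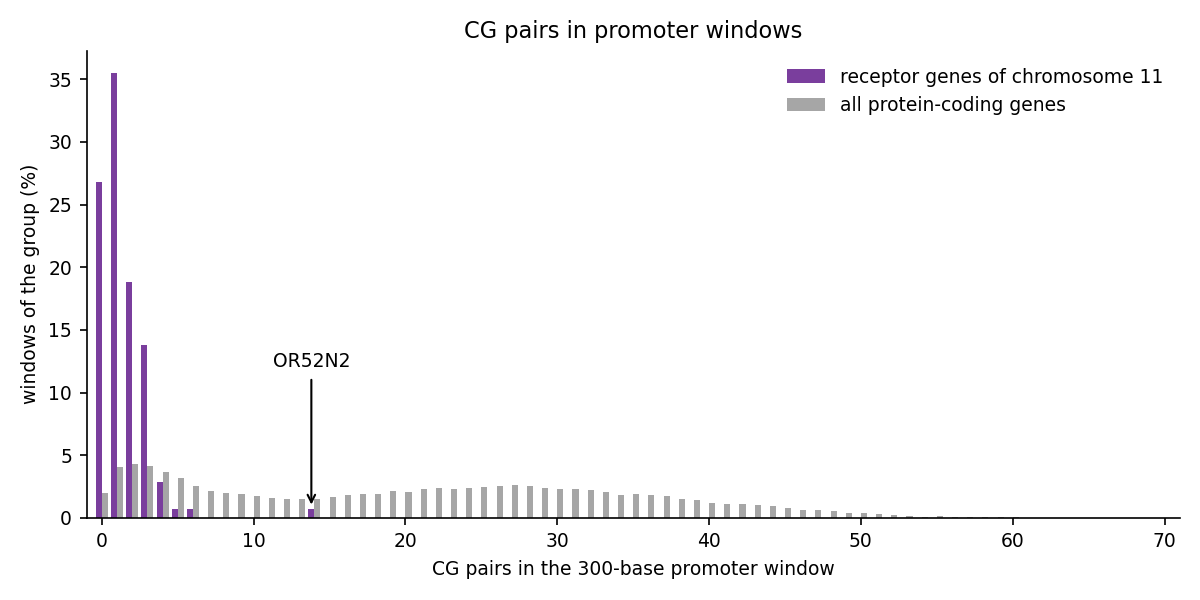
Number of CG pairs in each 300-base promoter window (x axis) against the share of windows in percent (y axis), for the 138 windows of receptor genes of chromosome 11 and the 22132 windows of all protein-coding genes. Receptor windows pile up at 0 to 3 pairs, and the 1 receptor window at 14 pairs is that of OR52N2.

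Short motifs were counted on both strands of the same windows, each on its own whether or not it overlapped another. TATAAA, the core of the TATA box, was in 36.2% of member windows, against 33.3% of windows of the other receptor genes and 9.46% of all windows. TAATTA, the core bound by LIM homeodomain factors such as LHX2, was in 24.6%, against 20.4% of windows of the other receptor genes and 3.40% of all windows. TCCCNNGGGA, the element of the EBF (Olf) factors of olfactory neurons, was in 1.45%, in the windows of OR52E5 and OR56A1, against 1.38%. CCNNNAGNNGGC, a reduced form of the CTCF motif, was in 0.725%, in the window of OR9G4 alone, against 12.4%. OR52N2 held none of the 4, and OR8G1 held TATAAA on the minus strand, 39 bases before its start. The part of base composition in these shares was not tested, and a match describes letters, not binding.

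OR52N2, a class I receptor gene of the territory that spans the beta-globin locus, was the only member with all 3 proteins over its promoter window. Its promoter window, the first of the sequences shown, overlapped a CTCF peak in 13 of 13 lists and a RAD21 peak in 11 of 12. No other member window overlapped a CTCF or RAD21 peak in any list. The fold enrichment of the CTCF peak, which the authors' lists give over the caller's background, was 18.4, 13.0 and 7.86 at 1 h, against 36.2, 16.3 and 17.1 without stress. Replicate by replicate the 1 h value was the lower one, but the ranges overlapped, and fold enrichment ranks peaks within a list and is not on 1 scale across lists. Within its own list the peak stood at percentile 59.2, 57.7 and 68.4 at 1 h, against 92.2, 66.5 and 89.1 without stress, and here too the ranges overlapped. CTCF summits lay at -253 to -292 bases from the RefSeq start in these 6 lists, just before the printed window. RAD21 had fold enrichments of 8.52, 12 and 11 there at 1 h, against 19.6, 8.78 and 13.8 without stress, and the missing RAD21 list was replicate 1 of the recovery.

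Pol II regions lay over the same window without stress, 1 of them called weakly, and none at 1 h. The window was covered over 0 and 0% of its bases at 1 h, against 100 and 62.7% without stress, and it was the only one of the 138 member windows covered in both untreated lists. The untreated regions were unequal: replicate 1 had a region of 2390 bp at fold enrichment 3.70, and replicate 2 one of 437 bp at 1.11. No member window was covered in both 1 h lists. Single lists covered 5 and 11 member windows at 1 h, against 4 and 1 without stress.

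Pol II coverage of the territories as a whole was low and was higher at 1 h. Regions covered 4.22 and 5.68% of the territory bases at 1 h, against 2.72 and 2.11% without stress, and the libraries of the groups did not overlap. The means were 4.95 ± 1.04% at 1 h and 2.42 ± 0.432% without stress (SD, n = 2 each), a difference of 2.53 percentage points. In the rest of chromosome 11 the coverage was 11 and 12.7% at 1 h, against 13.2 and 11.7% without stress, so the libraries overlapped there. The log2 ratio of territories to the rest was -1.39 and -1.16 at 1 h, against -2.28 and -2.47 without stress, a difference of 1.10. The exact 2-sided permutation test gave p = 0.333 for both differences, the smallest value that 2 libraries against 2 allow.

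Most of the 1 h regions were called weakly. Outside all protein-coding genes, the rest of the chromosome moved the same way, with 9.47 and 11.9% covered at 1 h, against 7.19 and 6.16% without stress. The territories without their other genes stood at 4.31 and 5.82% at 1 h, against 1.93 and 1.04% without stress. Their log2 ratio to the gene-free rest was -1.14 and -1.03 at 1 h, against -1.90 and -2.56 without stress, so they stayed below it in all 4 lists and were nearer to it at 1 h. The territories in full held 212 and 362 regions at 1 h, against 98 and 55 without stress. Of these, 78.3 and 94.8% had a deposited -log10 q under 1.3 at 1 h, against 45.9 and 54.5% without stress. The rest of the chromosome was similar, with 69.2 and 90.2% of its regions under 1.3 at 1 h, against 42.2 and 41.0% without stress. With only regions of -log10 q of at least 1.3 the direction in the territories turned, to a mean of 0.527% at 1 h and 1.12% without stress, a difference of -0.595 percentage points, while the log2 ratio to the rest still differed by 0.85. With this limit the rest of the chromosome differed by -6.13 percentage points and its gene-free part by -2.34. Joining members over gaps of up to 1 Mb, which takes in more of the genes around them, left a difference of 0.567 percentage points and a log2 ratio difference of 0.22. With the same number of regions from every list, an alternative chosen after seeing the data, the differences were 1.01 percentage points and 1.17 in log2 ratio. Without their other genes, the territories differed by 1.89 in log2 ratio to the rest, and the member gene spans alone by 2.14. In both of these the rest kept its genes. Against the gene-free rest, an alternative chosen after seeing the data, the territories without their other genes differed by 1.15.

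Regions of replicates seldom fell on the same bases of the territories at 1 h. Of the bases covered in 1 list at 1 h, 12.2 and 9.03% were covered in the other, where that other list covered 5.68 and 4.22% of all territory bases. Without stress 37.0 and 47.7% of the covered bases recurred, where the other list covered 2.11 and 2.72%. In the rest of the chromosome 30.0 and 26.0% recurred at 1 h, against 57.3 and 64.4% without stress. Every list covered a larger share of the rest than of the territories, so these percents cannot be compared directly. The ratio of recurrence to the coverage of the other list was 2.14 in the territories and 2.35 in the rest at 1 h. Without stress it was 17.5 in the territories and 4.88 in the rest.

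**Figure D2:**
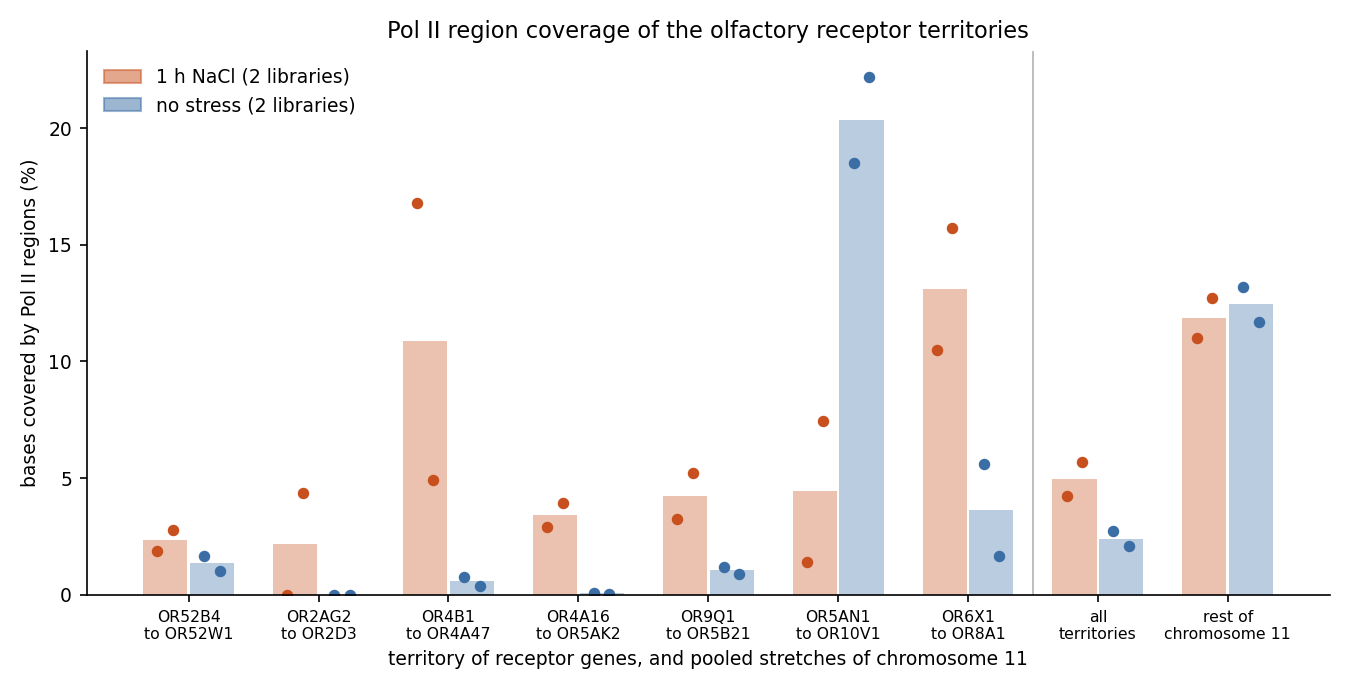
Bases covered by Pol II regions in percent (y axis) for each territory, for all territories and for the rest of chromosome 11 (x axis), at 1 h of NaCl and without stress. Points are the 2 libraries of a group and bars their means, and the 1 h points lie above the untreated ones in 5 of the 7 territories and below them in OR5AN1 to OR10V1.

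Territory by territory, 5 of 7 had both 1 h lists above both untreated lists. With only regions of -log10 q of at least 1.3, this held in none of them. OR6X1 to OR8A1 then had 4.16 and 0.501% at 1 h, against 3.56 and 1.07% without stress. The values that follow are of all regions unless a limit is named. OR4A16 to OR5AK2, the long stretch of 46 receptor genes, was nearly empty without stress: 2.92 and 3.92% were covered at 1 h, against 0.100 and 0.0400% without stress. OR4B1 to OR4A47 had 16.8 and 4.92% at 1 h, against 0.771 and 0.385% without stress. OR6X1 to OR8A1 had 10.5 and 15.7% at 1 h, against 5.59 and 1.67% without stress. OR9Q1 to OR5B21 had 3.24 and 5.22% at 1 h, against 1.20 and 0.910% without stress. OR52B4 to OR52W1 had 1.88 and 2.79% at 1 h, against 1.67 and 1.03% without stress, the smallest gap of the 5. In OR2AG2 to OR2D3 coverage appeared in 1 library alone, with 0 and 4.36% at 1 h, against 0 and 0% without stress. OR5AN1 to OR10V1 went the other way, with 1.43 and 7.46% at 1 h, against 18.5 and 22.2% without stress, and this is the territory that holds OSBP and PATL1. Without its other genes it was still lower, with 1.80 and 7.74% at 1 h, against 9.85 and 8.63% without stress. With the limit on q, the whole territory had 0 and 0% at 1 h, against 10.2 and 8.33% without stress. Without its other genes, it had 0 and 0% at 1 h with this limit, against 7.02 and 0.600% without stress. OSBP was covered over 0 and 11.4% at 1 h, against 29.2 and 86.3% without stress, and PATL1 over 0 and 0% at 1 h, against 79.9 and 58.4% without stress. Leaving this territory out, a choice made after seeing the data, gave a difference of 3.79 percentage points and 2.23 in log2 ratio over the others, and leaving out OR6X1 to OR8A1 gave 1.34 and 0.74.

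Most receptor genes had no Pol II region in any list. This held for 113 of 168 members (67.3%), against 9.13% of all protein-coding genes, and 3 members (1.79%) had a region in all 4 lists, against 49.1% of all genes. Most members are short, 148 of them at most 10 kb. Of these short members, 73.6% had a region in no list and 0% in all 4. The 5340 other genes of at most 10 kb had 22.1 and 20.2%. Any coverage was seen in 24 and 41 members at 1 h (14.3 and 24.4%), against 10 and 10 without stress (5.95 and 5.95%). The shares of all protein-coding genes, given above, were higher in every list. The mean covered share of the members was 4.70 and 4.58% at 1 h, against 1.20 and 0.558% without stress, and the median was 0 in every list. Over all protein-coding genes the mean was 15.8 and 17.0% at 1 h, against 28.2 and 27.4% without stress, so members were higher at 1 h while genes as a whole were lower. The mean difference was 3.76 percentage points for members, 3.12 for receptor genes of other chromosomes and 4.03 for keratin-associated protein genes. The libraries were apart in the members but overlapped in both of the other groups. Receptor genes of other chromosomes had 3.20 and 8.22% at 1 h, against 3.62 and 1.56% without stress. Keratin-associated protein genes had 6.06 and 11.3% at 1 h, against 3.21 and 6.07% without stress. With only regions of -log10 q of at least 1.3 the mean difference of the members was -0.362 percentage points, so their direction turned. Both 1 h lists lay above both untreated lists in 12 members (7.14%), against 16.1% of all genes, and below them in 1 member (0.595%), against 35.2% of all genes. Among genes of at most 10 kb, 4.05% of members and 8.60% of other genes were higher, and 0 and 26.1% were lower. The 219 receptor genes of other chromosomes had 21 higher (9.59%) and 8 lower (3.65%). With the same limit on q, no member was higher and 1 was lower. The count of 12 rested on both 1 h libraries, being 37 without replicate 1 and 22 without replicate 2. The count of 1 was 2 without replicate 2 at 1 h, and 3 and 6 without replicates 1 and 2 of the untreated cells.

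Of the 12, 7 lie in OR6X1 to OR8A1, where they are 31.8% of the 22 members. OR4D5, a gene of 957 bp, was covered over 90.4 and 100% at 1 h, against 0 and 0% without stress. Its regions had fold enrichments of 1.59 and 1.47. OR10G8 had 13.8 and 39.3% at 1 h, against 0 and 0% without stress. OR8B8 had 34.8 and 16.8% at 1 h, against 0 and 0% without stress. The libraries of the groups were apart in all 3, yet no base of OR10G8 or OR8B8 was covered in both 1 h lists. OR8B3 had 6.03 and 26.7% at 1 h, against 0 and 3.94% without stress, and OR8B2, whose span overlaps it, had 7.15 and 11.4% at 1 h, against 0 and 0% without stress. Inside OR8B3, Pol II regions of replicate 2 in both conditions overlapped a CTCF site (chr11:124402196-124402759) where untreated RAD21 replicate 3 also had a peak. OR8G5 had 10.2 and 16.2% at 1 h, against 0 and 3.37% without stress. OR10G7 had 20.3 and 7.70% at 1 h, against 0 and 6.51% without stress, so its lower 1 h value was close to its higher untreated one. OR8G1 in the same territory was the 1 member that was lower, with 2.78 and 3.66% at 1 h, against 14.3 and 4.64% without stress. Its lower untreated value was close to its higher 1 h one, and in neither group was any base of OR8G1 covered in both lists. Its untreated regions reached fold enrichments of 4.48 and 2.29, and those at 1 h 1.26 and 1.19.

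The other 5 were spread over the chromosome. OR2AT4, known as a sandalwood receptor that is also made in skin, lies alone outside the territories and had 90.6 and 5.19% at 1 h, against 0 and 1.61% without stress. Its 1 h libraries were far apart, and the lower of them was near the untreated ones. OR4D10 had 24.3 and 3.90% at 1 h, against 0 and 0% without stress. OR52N4 had 7.87 and 4.24% at 1 h, against 0 and 0% without stress. OR9Q1 and OR51B5 have very long annotated spans that enclose other receptor genes. OR9Q1 had 4.69 and 4.77% at 1 h, against 2.56 and 1.51% without stress. OR51B5 had 2.26 and 3.04% at 1 h, against 0.347 and 0.152% without stress. In 6 of the 12 some base was covered in both 1 h lists, and over all members this held for 6 genes at 1 h (3.57%), against 3 without stress (1.79%). Over all protein-coding genes it was 40.9% at 1 h, against 62.3% without stress.

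**Figure D3:**
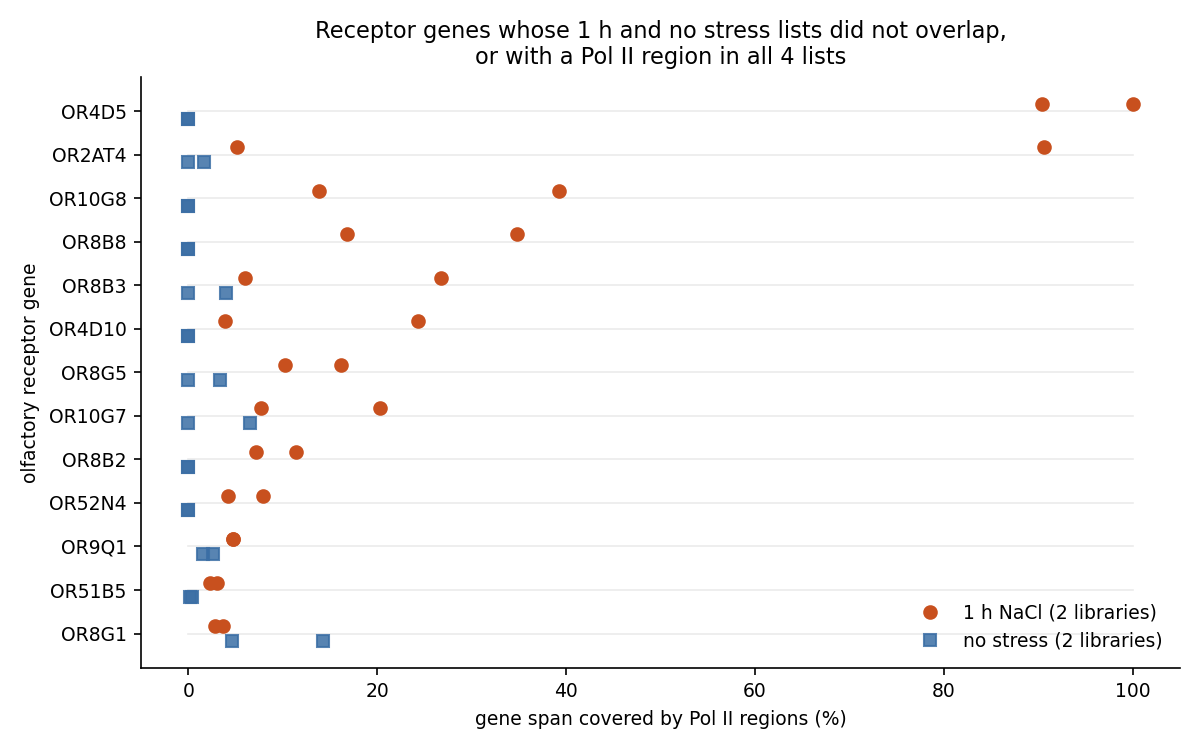
Share of the gene span covered by Pol II regions in percent (x axis) for the 13 receptor genes (y axis) whose 1 h and untreated lists did not overlap, which include the 3 genes with a region in all 4 lists. Each point is 1 library, circles at 1 h and squares without stress, and OR8G1 at the bottom is the gene with the squares to the right.

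Genes of other kinds inside or beside the territories were mixed. None of the 5 beta-globin genes (HBB, HBD, HBG1, HBG2 and HBE1), which are erythroid, had a region in any list. Of the 6 TRIM genes of 11p15.4, which encode ubiquitin ligases with antiviral members, TRIM6 was higher by the same rule, with 17.8 and 6.90% at 1 h, against 6.38 and 5.71% without stress, and none was lower. TMEM225 had 15.1 and 21.4% at 1 h, against 0 and 0% without stress, and MMP26, a matrix metalloproteinase gene whose span holds receptor genes, 0.391 and 1.53% at 1 h, against 0 and 0% without stress. CNGA4, a subunit of the olfactory channel encoded just beyond OR52W1, had 0 and 0% at 1 h, against 10.7 and 9.09% without stress. VWA5A had 3.54 and 20.3% at 1 h, against 22.8 and 7.61% without stress, so its libraries overlapped. Of the 12 genes of olfactory signalling over the genome, 1 was higher and 3 were lower by the same rule, and of 8 factors of receptor choice 1 was higher and 3 were lower. These shares, 8.33 and 25% for signalling and 12.5 and 37.5% for choice, were near the 16.1 and 35.2% of all genes. The 3 lower choice factors were KDM1A, a histone demethylase, LDB1, the partner of LHX2, and CBX5, a heterochromatin protein. LDB1 had 0 and 1.62% at 1 h, against 100 and 100% without stress. The higher ones were GNG13, a G protein gamma subunit, with 100 and 99.2% at 1 h, against 51.2 and 57.2% without stress, and ATF5, a transcription factor of the unfolded protein response, with 80 and 60.6% at 1 h, against 35 and 31.4% without stress.

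CTCF peaks were sparse in the territories in every condition. There were 35, 34 and 18 peaks at 1 h, against 59, 41 and 32 without stress. The set 2 library was the lowest in both groups, and the groups overlapped. The difference in log2 peak number was -0.62, with p = 0.30 in an exact 2-sided permutation test, of which 0.10 is the smallest value possible. Same-numbered libraries, taken as paired, held fewer peaks at 1 h in all 3 pairs, and the exact sign-flip permutation test over pairs gave p = 0.25, the smallest it allows. This pairing cannot be told apart from the set, since replicate 3 of both groups is of set 2. The density in the territories relative to the rest of the chromosome was 0.440, 0.441 and 0.326 at 1 h, against 0.445, 0.418 and 0.349 without stress. The log2 ratio differed by -0.01 (exact permutation p = 0.80). Without replicate 3 at 1 h, the difference in log2 peak number was -0.31, and without replicate 1 of the untreated cells -0.38. With the same number of strongest peaks from each list it was 0.10.

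At 7.5 min, the set 1 libraries held 31 and 31 CTCF peaks in the territories, against 59 and 41 in the untreated libraries of set 1. The difference was -0.67 on the log2 scale (exact permutation p = 0.333, the smallest possible with 2 against 2). It was -0.40 without replicate 1 of the untreated cells and 0.00 with the same number of strongest peaks. The single library at 30 min had 29 peaks and the single recovery library 41. With triptolide, 15 peaks were called at 1 h and 25 after recovery, against 31 without stress.

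RAD21 peaks were rarer still. The territories held 3, 3 and 6 at 1 h, against 11, 6 and 23 without stress. The highest 1 h library equalled the lowest untreated one, and the log2 difference was -1.60 (exact permutation p = 0.20). Relative to the rest of chromosome 11 the density was 0.20, 0.133 and 0.289 at 1 h, against 0.237, 0.175 and 0.386 without stress. The groups overlapped, with a log2 difference of -0.35 (exact permutation p = 0.50). That difference was -0.04 without replicate 3 of the untreated cells, -0.07 without replicate 2 at 1 h, and -0.63 and -0.62 without replicate 3 at 1 h or replicate 2 of the untreated cells. After recovery the territories held 2, 12 and 6 peaks, against 3, 3 and 6 at 1 h, a log2 difference of 0.47 (exact permutation p = 0.70). It was -0.13 without recovery replicate 2, 1.17 without recovery replicate 1, 0.81 without replicate 3 at 1 h, and 0.31 without either of the other 1 h replicates. With the same number of strongest peaks it was 0.14, and with gaps of 1 Mb 0.18. With triptolide there were 3 at 1 h and 17 after recovery, against 25 without stress. OR4A16 to OR5AK2 had no RAD21 peak in any library at 1 h or after recovery without triptolide, and of the 3 untreated libraries replicate 3 alone had any, with 2.

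**Figure D4:**
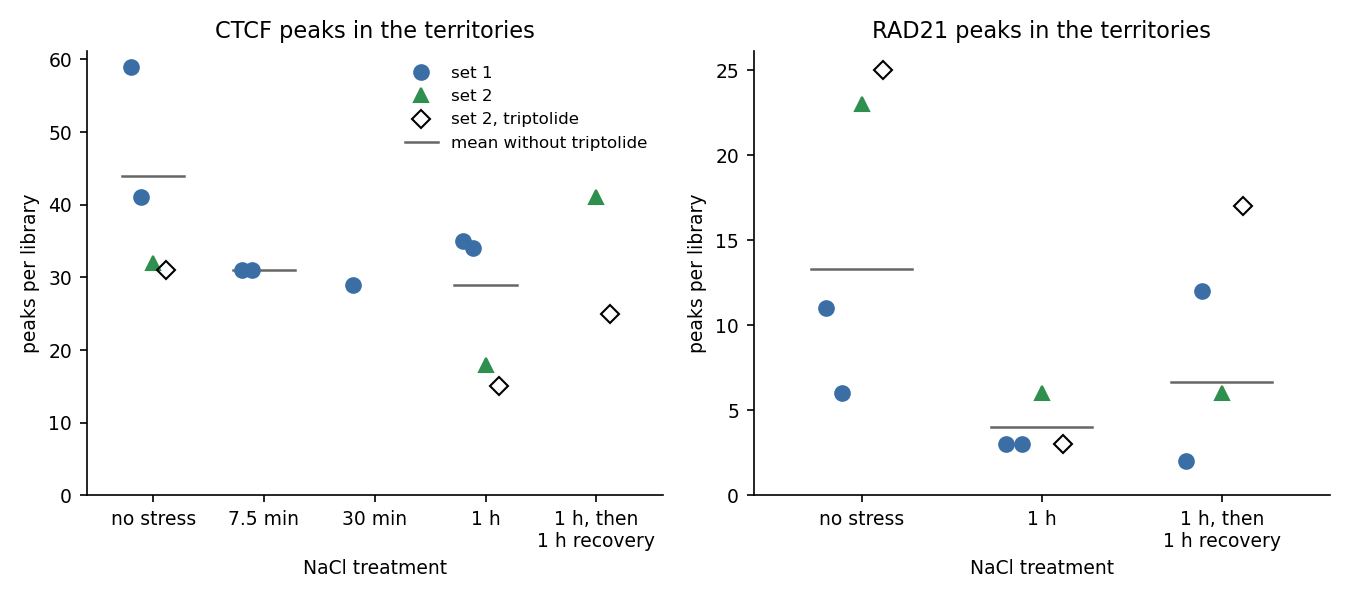
CTCF peaks (left) and RAD21 peaks (right) in the 7 territories, as peaks per library (y axis), by NaCl treatment in order of time (x axis). Circles are set 1, triangles set 2 and open diamonds the triptolide libraries of set 2, and horizontal lines are means without triptolide where there was more than 1 library. RAD21 stood at 3, 3 and 6 at 1 h, and its highest untreated libraries are those of set 2.

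Merging the peaks of the untreated and 1 h lists gave 72 CTCF sites in the territories, of which 23 were present in all 3 untreated libraries, at least 1 in each territory. Of the 23, 15 were kept in every 1 h library (65.2%), against 57.1% of such sites in the genome, and 1 was lost from all of them (4.35%), against 5.85%. None was gained, and in the genome 28 of 71635 sites were (0.0391%). The remaining 7 were missing from replicate 3 at 1 h, and 1 of them also from replicate 2. The count of lost sites was 2 without replicate 1 at 1 h, 2 without replicate 2 of the untreated cells and 7 without replicate 3 of the untreated cells. In that last setting 40 sites were shared, of which 37.5% were kept and 17.5% lost.

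The 1 lost CTCF site lies at chr11:124536569-124536973, 5749 bp from OR8B12. It was weak, with fold enrichments of 8.59, 4.62 and 4.46 in the untreated libraries and a mean percentile of 23.6 among all peaks. No peak was called there at 7.5 min (0 of 2 lists), at 30 min, at 1 h (0 of 3 lists) or at 1 h with triptolide. It was present in the untreated triptolide library, at 5.73, and after recovery with and without triptolide, at 3.71 and 6.60. Ranked by mean percentile in the untreated lists, the strongest kept site lay inside OR52K1 (chr11:4493157-4493958), at 38.4, 17.3 and 6.16 at 1 h, against 47.8, 31.3 and 11.1 without stress. The next, 12563 bp from OR6A2 (chr11:6812252-6812973), had 19.5, 34.2 and 5.90 at 1 h, against 40, 29.4 and 11.5 without stress. The site 31894 bp from OR10V1 (chr11:59680510-59681022) had 34.6, 21.6 and 6.76 at 1 h, against 26.9, 39.0 and 13.0 without stress. The kept sites next in rank were those 6101 bp from OR10D3, at OR52N2, 314 bp from OR4S1, 3399 bp from OR5A2 and 138 bp from OR51D1. Set 2 had the lowest value of its group at each of the 3 sites for which values are given.

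RAD21 had 24 sites in the territories, of which 6 were present in all 3 untreated libraries. Of the 6, 2 were kept in every 1 h library (33.3%), against 34.5% in the genome, and 3 were lost from all (50%), against 32.4%. None was gained, against 2 of 29711 in the genome (0.00673%). The count of lost sites was 6 of 11 without replicate 2 of the untreated cells. The kept sites were at OR52N2 and 31913 bp from OR10V1 (chr11:59680492-59681003), both of which also carried a kept CTCF site.

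The lost RAD21 site at OR52K1 (chr11:4493174-4493619), which lies within the strongest kept CTCF site, was called in every other condition. Its fold enrichment was 16.9, 9.14 and 17.1 without stress and 34.9 with triptolide alone. No peak was called in the 3 libraries at 1 h or in the triptolide library at 1 h. After recovery it was 8.31, 24.8 and 6.03, and 22.4 with triptolide. The site 17964 bp from OR10W1 (chr11:58286224-58286660) had 11.7, 7.04 and 15.5 without stress, no peak at 1 h, and 7.10 in recovery replicate 2 alone of the 3 without triptolide. The site 28025 bp from OR10G7 (chr11:124069350-124069739) had 7.6, 8.55 and 8.02 without stress, no peak at 1 h, and 16.2 and 4.76 in recovery replicates 2 and 3. CTCF at these last 2 places was called in replicates 1 and 2 at 1 h and not in replicate 3.

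At the 23 shared CTCF sites, RAD21 was called at 3, 3 and 5 at 1 h, against 11, 6 and 20 without stress, so the groups did not overlap. RAD21 peaks over the rest of chromosome 11 did not overlap either, with 349, 524 and 483 at 1 h, against 1080, 798 and 1385 without stress. How often RAD21 was called at shared CTCF sites elsewhere was not measured. After recovery RAD21 was called at 2, 12 and 6 of the 23. With triptolide it was called at 3 at 1 h and 16 after recovery, against 21 without stress. CTCF itself was called at 22, 21 and 15 of them at 1 h, at 22 and 21 at 7.5 min and at 20 at 30 min. It was called at 23 after recovery and, with triptolide, at 14 at 1 h and 20 after recovery, against 23 without stress. The RAD21 lists at 1 h were also shorter, with 4761, 7843 and 6630 peaks at 1 h, against 18297, 13762 and 24931 without stress, and the part of list length in these numbers was not tested.

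**Figure D5:**
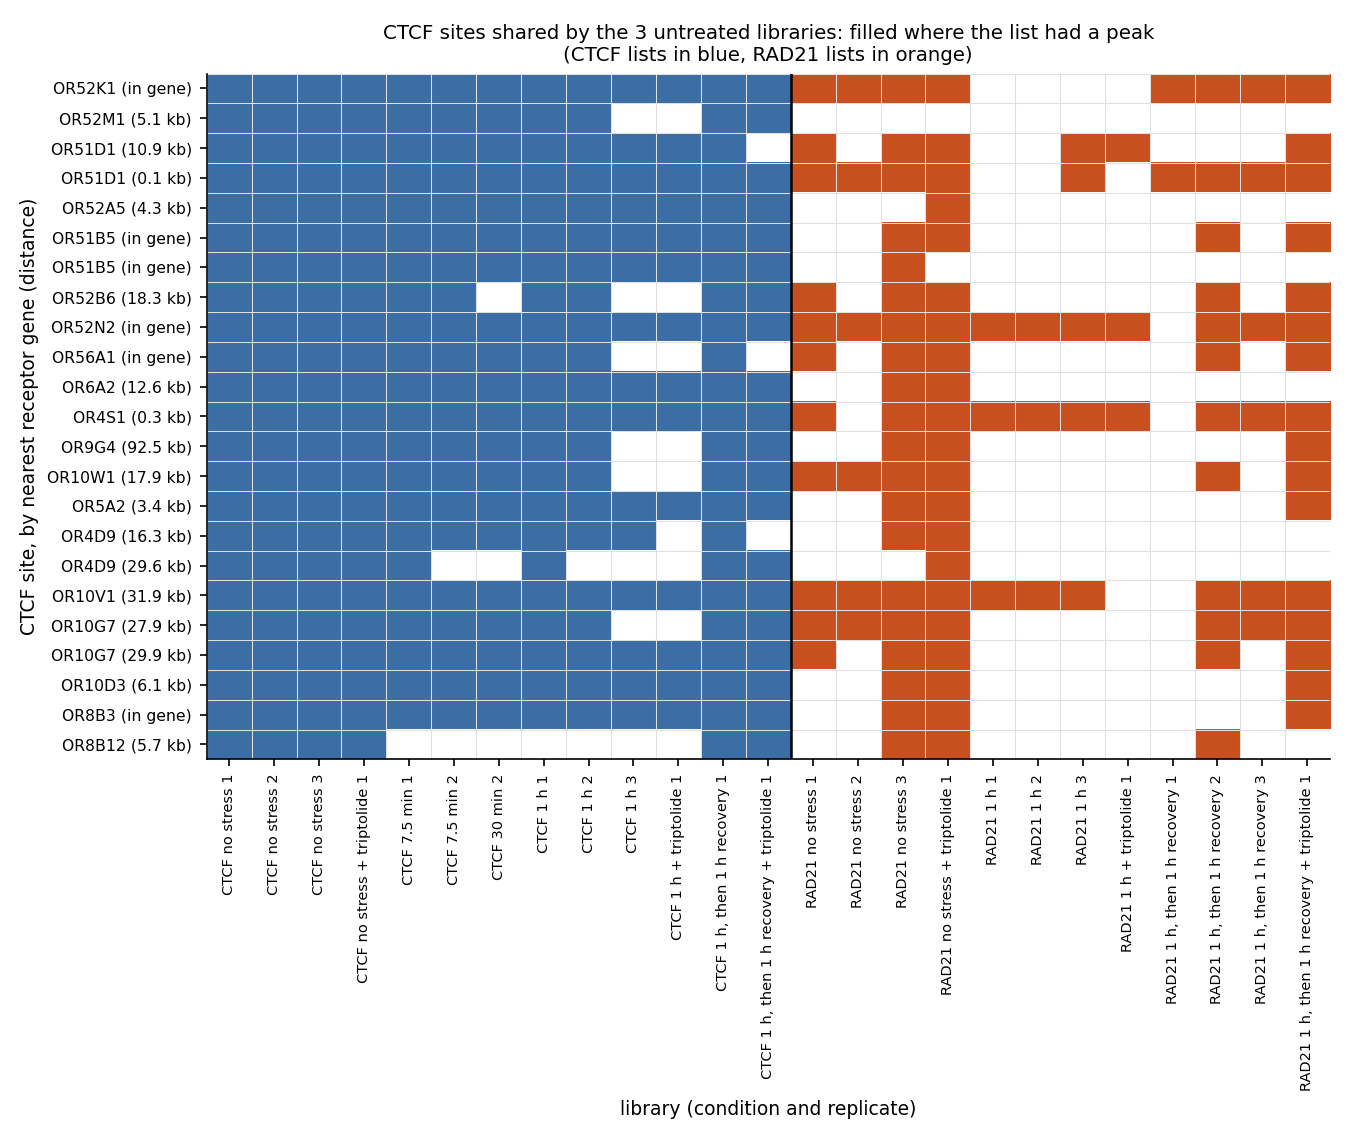
The 23 CTCF sites present in all 3 untreated CTCF libraries, from top to bottom along the chromosome and named by the nearest receptor gene (y axis), across the 25 CTCF and RAD21 libraries (x axis). A filled cell means that the list had a peak there, and the OR8B12 row is empty in every CTCF library at 7.5 min, 30 min and 1 h, while the RAD21 cells of the OR52K1 row are empty at 1 h alone.

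Few receptor genes had such a site close by. A shared CTCF site lay in the gene or within 1 kb for 8 of 168 members (4.76%), against 42.7% of all protein-coding genes: OR52K1, OR51D1, OR51B5, OR52N2, OR56A3, OR56A1, OR4S1 and OR8B3. A shared RAD21 site did so for OR52K1, OR51D1 and OR52N2 (1.79%), against 21.9% of all genes. The part of gene length in these shares was not tested. The same CTCF site served OR56A3 and OR56A1, whose spans overlap. Members in the territories had a median distance of 84.3 kb to the nearest shared CTCF site and of 351.9 kb to the nearest shared RAD21 site. The site 314 bp from OR4S1 (chr11:48307466-48308409) kept RAD21 at 1 h in all 3 libraries, although RAD21 replicate 2 without stress had no peak there.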

How the data were processed

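Chromatin immunoprecipitation was measured in 41 samples, of which 29 had a peak list (13 CTCF, 12 RAD21, 4 Pol II) and 12 inputs were not analysed here. Per the submitters' processing notes, which give no roles or thresholds, the tools included cutadapt, Bowtie2 2.2.6 and MACS2, with the hg38 build. Each deposited list was made per library by the authors and gives a score, a fold enrichment over the caller's background, a -log10 p and a -log10 q per peak, and for narrow peaks a summit offset. The lists give no read counts, so depth is unknown.

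From these, covered bases and peak numbers per library were computed with Python 3.11.15, numpy 2.4.6 and pandas 2.3.3. Steps were tested on simulated data. Peaks overlapping by 1 bp were merged into sites over chromosomes 1 to 22 and X. A gene was called higher or lower where both 1 h lists lay above or below both untreated lists. Tests were exact 2-sided permutations over libraries. Named genes were members with Pol II regions in all 4 lists, the 10 largest differences each way without overlap, members within 1 kb of a shared site, up to 10 kept, lost or gained sites by mean percentile, and listed genes in or beside a territory; other named members were chosen after their values were seen. Members and lists were chosen with earlier results of these data known.

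Replicate numbers come from the titles. Same-numbered CTCF libraries at 1 h and without stress deviated together over 71635 sites (r = 0.13, 0.38 and 0.34) and were taken as paired. For 6 of the 12 set 2 libraries the characteristics and the title disagree about triptolide, and the grouping follows the title.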

Additional observations from a re-analysis of the deposited data

How the results depend on the processing

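Of 156 alternatives over 15 results, 126 kept the direction and the side of the threshold or stayed near the value, 11 turned the direction and 19 moved it, and no tested difference could reach 0.05. With -log10 q of at least 1.3, Pol II differed by -0.595 points over the territories and -0.362 over members, and 0 members were higher. Flanks of 5 kb gave 38 higher and 3 lower members, and members of at most 10 kb 6 and 0. Leaving out a library gave 12 to 37 higher and 1 to 6 lower members. With the same number of strongest peaks, the CTCF log2 difference was 0.10, also relative to the rest, 8 CTCF sites were kept and 0 lost, and 0 RAD21 sites were kept or lost; the RAD21 differences between 1 h and no stress could not be computed, since a library had no peak. Relative to the rest, CTCF gave 0.10 with gaps of 1 Mb, 0.03 within set 1 and -0.11 to 0.13 without 1 library, and RAD21 gave 0.07 with gaps of 1 Mb. RAD21 recovery gave 0.00 within set 2 and -0.13 to 1.17 without 1 library. Without 1 library, lost sites ranged over 1 to 7 for CTCF and 3 to 6 for RAD21. The cause of these changes was not tested. With the replicate block the differences were 2.53 for Pol II, -0.62 for CTCF and -1.60 for RAD21, and it changed no call. Same-numbered Pol II libraries (r = 0.04 and 0.04) and RAD21 libraries at 1 h (r = -0.05, 0.20 and 0.09) shared only a number. Alternatives that left out a territory, matched the number of Pol II regions or used the gene-free rest were chosen after seeing the data. Without read counts, absence from a list is not absence of binding.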
